A study of Mus musculus with 8 samples.

Results

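Aminoacyl-tRNA synthetases join each amino acid to its transfer RNA. Their 36 mouse genes were taken by symbol from a deposited table of 52097 genes measured in cells sorted as blood stem cells with and without the nuclear pore gene Nup214. The members are 20 genes for cytosolic enzymes, 8 of them in the multi-synthetase complex, and 16 genes for enzymes imported into mitochondria, and all 36 were found in the table. The cells were labelled as haematopoietic stem cells of mouse bone marrow, sorted as CD48-CD150+LSK 3 days after pIpC was given, and measured by bulk RNA sequencing. Knockout libraries (n = 3) carried Nup214fl/fl and Mx1-Cre. Control libraries (n = 5) carried Nup214fl/fl and no Cre. Both groups shared the loxP-flanked alleles and the pIpC injections, so Cre and the loss of Nup214 cannot be told apart. Mx1-Cre is driven by an interferon-responsive promoter and is switched on by pIpC in many cell types besides stem cells. Whether the libraries of a group come from different animals is not stated in the labels, and the p-values therefore measure a spread between libraries that may in part be technical. Ages of the mice are not given in the sources used here.

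Each synthetase recognises its own amino acid and the matching transfer RNAs and uses ATP to join them, which makes it a fixed cost of protein synthesis in every cell. In the cytosol several of these enzymes are held together by scaffold proteins in the multi-synthetase complex, while others work as free dimers or larger assemblies. Mitochondria translate their own messages, and most of their synthetases come from separate nuclear genes whose names end in 2. Gars and Kars make enzyme for both compartments, and mitochondrial glutaminyl-tRNA is made indirectly, through glutamyl-tRNA.

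Nup214, the deleted gene (ENSMUSG00000001855), had 17.6, 9.66 and 18.2 FPKM in knockout libraries, against 43.2, 65.2, 48.5, 34.2 and 55.3 FPKM in control libraries. FPKM is the number of fragments per kilobase of transcript, scaled to the mapped fragments of the library. All knockout values lay below all control values, and the fold change, on a log2 scale, was -1.66 with an SE of 0.25 (limma, adjusted p = 0.000289; exact two-sided permutation test p = 0.0179, the smallest that 56 splits allow). Residual signal remained, and after median-ratio rescaling the fold change was -0.72 (limma adjusted p = 0.0539). It was -0.89 with the non-mitochondrial total (limma adjusted p = 0.0239) and -0.76 after quantile normalization (0.0415), both called lower. The libraries also differed in makeup. Genes with at least 1 FPKM numbered 15510 to 15825 in knockout libraries and 13576 to 14363 in control libraries, and the odorant receptor family (Olfr genes), typical of the nose, summed to 480.0 to 663 FPKM in knockout libraries and 23.4 to 167 FPKM in control libraries. Their estimated depth was 16200000 to 22700000 fragments in knockout libraries and 20500000 to 44400000 fragments in control libraries. Genes of the mitochondrial genome took 37.8% to 43.3% of all FPKM in knockout libraries and 5.02% to 6.66% in control libraries. As deposited, 7 of 10 marker genes of the sorted cell type were called lower and 1 higher, where 59.5% and 8.91% of all genes were. After median-ratio rescaling 7 were called lower and 2 higher, where 16.7% and 19.0% of all genes were. Their summed level as deposited was 338 to 432 FPKM in knockout libraries and 685 to 946 FPKM in control libraries. Kit, a receptor the gate selects for, had 9.12, 3.46 and 23.4 FPKM in knockout libraries, against 174, 128, 132, 124 and 127 FPKM in control libraries. The markers did not all fall as Kit did. The highest of them had a mean of 330 FPKM in knockout libraries, most of their mean sum of 371 FPKM. In control libraries the highest marker mean was 329 FPKM, of a mean sum of 782 FPKM. Macrophage markers were higher in 10 of 11 (summed level 1845 to 7457 FPKM in knockout libraries and 431 to 591 FPKM in control libraries), T and NK cell markers in 10 of 11 (1721 to 2189 FPKM in knockout and 293 to 780 FPKM in control libraries) and stromal or endothelial markers in 8 of 10, with 2 lower (356 to 841 FPKM in knockout and 69.2 to 88.2 FPKM in control libraries). Of the B cell markers tested 1 of 3 was lower, of the erythroid markers 3 of 6 were lower and 2 higher, and of the neutrophil progenitor markers 4 of 6 were lower. All these counts are as deposited, beside 59.5% lower and 8.91% higher among all genes. The neutrophil progenitor markers summed to 1544 to 6082 FPKM in knockout libraries and 3037 to 9507 FPKM in control libraries. In control libraries this was above the stem cell marker sum of 685 to 946 FPKM, so the controls were not free of other lineages' markers. With most stem cell markers lower and most macrophage, T and NK cell and stromal or endothelial markers higher, the knockout libraries thus go against the label of the sorted population. In bulk RNA, fewer cells of a type and less RNA per cell cannot be told apart, and the part of other cell types and of mitochondrial RNA in the results that follow was not tested.

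Since the mitochondrial share differed between the groups, each gene is given as deposited and after rescaling. The fold change is the knockout mean minus the control mean of log2(FPKM + 1), a scale that understates changes of low genes. As deposited, the median fold change of all 15121 genes tested was -0.81, and 59.5% of them were called lower and 8.91% higher at an adjusted p below 0.05. Median-ratio rescaling divides each library by a factor that brings its typical gene level with the other libraries. After it the median was -0.02, with 16.7% called lower and 19.0% higher. Rescaling to the total without mitochondrial genes and their nuclear copies gave a median of -0.16 (22.6% lower, 15.5% higher), and quantile normalization gave -0.11 (20.4% lower, 16.7% higher).

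The synthetase genes were lower in knockout libraries nearly throughout as deposited, and most of them were not called after rescaling. Their median fold change as deposited was -1.07, against -0.81 for all genes tested. These medians are not on an equal footing, since the scale understates changes of low genes. The median control mean was 42.2 FPKM for cytosolic and 14.5 FPKM for mitochondrial members, while the median gene tested had 9.99 to 10.6 FPKM in control libraries. All 36 passed the filter on low values. Of the 20 cytosolic genes, 19 fell and none rose as deposited, and 3 were called lower and 1 higher after median-ratio rescaling. Of the 16 mitochondrial genes, 14 fell and none rose as deposited, and 2 were called lower and 1 higher after median-ratio rescaling. Among all genes, 59.5% were called lower as deposited, and 16.7% lower and 19.0% higher after median-ratio rescaling. Median fold changes were -0.96 for the cytosolic and -1.19 for the mitochondrial genes as deposited, and -0.03 and -0.38 after median-ratio rescaling. Those of all genes were -0.81 and -0.02, so the cytosolic median was near that of all genes after this rescaling. Eprs, Farsa, Vars, Cars2 and Sars2 were called lower under all 4 scalings, a status that 16.6% of all genes had, and no member was called higher under all 4, as 8.88% of all genes were. No member was called in opposite directions under different scalings, and none had a fold change above 0 as deposited.

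Summed over the 20 cytosolic genes, the level was 423, 453 and 459 FPKM in knockout libraries, against 942, 936, 935, 1086 and 961 FPKM in control libraries. The 16 mitochondrial genes summed to 171, 171 and 189.9 FPKM in knockout libraries and to 346, 334, 342, 303 and 334 FPKM in control libraries. Neither sum overlapped between the groups. The groups did not overlap for 33 of the 36 members as deposited, all with lower knockout values, where 54.5% of all genes had that order and 7.89% the opposite one. After median-ratio rescaling 5 members (Eprs, Kars, Farsa, Vars and Sars2) had all knockout values below all control values, as 17.1% of all genes did, and 3 (Aars, Tars and Lars2) had the opposite order, as 19.7% of all genes did.

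Promoter sequence was at hand for 27 members (13 cytosolic and 14 mitochondrial), from RefSeq on GRCm38.p6, covering 250 bases before to 50 after each gene start. The amino acid response core TGATGNAA, bound by ATF4 and its partners where it is active, was searched on both strands and was present in 4.51% of the windows of 27025 genes. It lay in 5 of the 13 cytosolic windows (Iars, Aars, Gars, Tars and Yars) and in none of the 14 mitochondrial windows. The E-box CACGTG lay in the windows of Iars, Aars, Farsb, Tars and Ears2 and in 8.09% of all windows. The NRF1-type motif, GCGCA and GCGC spaced by 1 base, lay in those of Kars, Farsb, Tars, Iars2 and Mars2 and in 5.19% of all windows. The GAS element TTCNNNGAA, an interferon gamma response motif, lay in those of Kars, Aars and Nars2 and in 9.55% of all windows. A match is a run of letters and was not shown to be bound. The E-box and the GAS element are palindromes, and the 4 motifs were counted separately even where matches overlap.

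The 250 bases upstream of 5 genes are shown because their fold changes span the cytosolic class. Aars, Gars and Tars have a match before the start, while Farsa and Eprs, both called lower under all 4 scalings, have no match to any of the 4 motifs. The 5 do not stand for the class. Iars and Yars have the amino acid response core and had -0.04 and -0.03 after median-ratio rescaling. Mars and Sars have none of the 4 motifs and had 0.29 and 0.20. No window was at hand for Vars, also called lower under all 4 scalings. A link of a motif to the fold changes was not tested. Each is written 5′ to 3′ on the gene's strand, and capitals mark the matches: in Aars the E-box, the amino acid response core (as its reverse complement) and the GAS element, in that order, in Gars the amino acid response core, and in Tars the NRF1-type motif and then the amino acid response core, these also as reverse complements. The windows are chr8:111033592-111033841 (Aars, plus strand), chr6:55037751-55038000 (Gars, plus strand), chr15:11399659-11399908 (Tars, minus strand), chr1:185362794-185363043 (Eprs, plus strand) and chr8:84856736-84856985 (Farsa, plus strand).
Aars: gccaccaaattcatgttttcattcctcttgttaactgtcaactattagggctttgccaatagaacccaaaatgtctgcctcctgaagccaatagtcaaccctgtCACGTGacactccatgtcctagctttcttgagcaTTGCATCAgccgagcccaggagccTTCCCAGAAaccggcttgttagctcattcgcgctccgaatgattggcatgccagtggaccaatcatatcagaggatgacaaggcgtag
Gars: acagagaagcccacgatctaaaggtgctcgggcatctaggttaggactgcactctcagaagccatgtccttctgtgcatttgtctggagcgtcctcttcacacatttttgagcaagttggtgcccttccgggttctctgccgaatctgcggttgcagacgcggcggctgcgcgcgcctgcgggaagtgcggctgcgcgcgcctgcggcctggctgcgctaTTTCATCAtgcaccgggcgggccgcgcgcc
Tars: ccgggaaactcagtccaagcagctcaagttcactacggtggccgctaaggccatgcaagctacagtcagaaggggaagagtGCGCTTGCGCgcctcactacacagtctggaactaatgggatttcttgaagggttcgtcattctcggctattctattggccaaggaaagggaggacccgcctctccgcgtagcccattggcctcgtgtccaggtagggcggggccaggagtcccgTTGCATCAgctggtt
Eprs: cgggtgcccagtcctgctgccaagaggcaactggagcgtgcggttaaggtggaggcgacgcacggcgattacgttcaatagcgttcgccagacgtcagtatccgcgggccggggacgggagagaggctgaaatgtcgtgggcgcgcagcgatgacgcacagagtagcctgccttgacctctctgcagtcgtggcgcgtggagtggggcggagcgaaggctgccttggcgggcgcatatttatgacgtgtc
Farsa: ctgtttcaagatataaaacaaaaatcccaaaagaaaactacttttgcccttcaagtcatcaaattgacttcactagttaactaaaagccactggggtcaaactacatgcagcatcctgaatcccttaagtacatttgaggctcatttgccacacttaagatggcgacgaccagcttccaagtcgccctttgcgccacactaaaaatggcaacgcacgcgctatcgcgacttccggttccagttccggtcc

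Cytosolic genes with an amino acid response core in the window had a median fold change of -0.71 (5 genes, -0.96 to -0.29) as deposited, against -1.23 (8 genes, -1.91 to -0.65) for those without. After median-ratio rescaling these became 0.21 and -0.27, and the ranges overlapped under both scalings. The 5 genes with a match included the 1 cytosolic gene called higher after rescaling, Aars, and 4 called lower as deposited. Of the 8 genes without a match all were called lower as deposited, and 2 of them (Eprs and Farsa) after rescaling. Among all genes, 59.5% were called lower as deposited, and 16.7% lower and 19.0% higher after median-ratio rescaling.

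**Figure D1:**
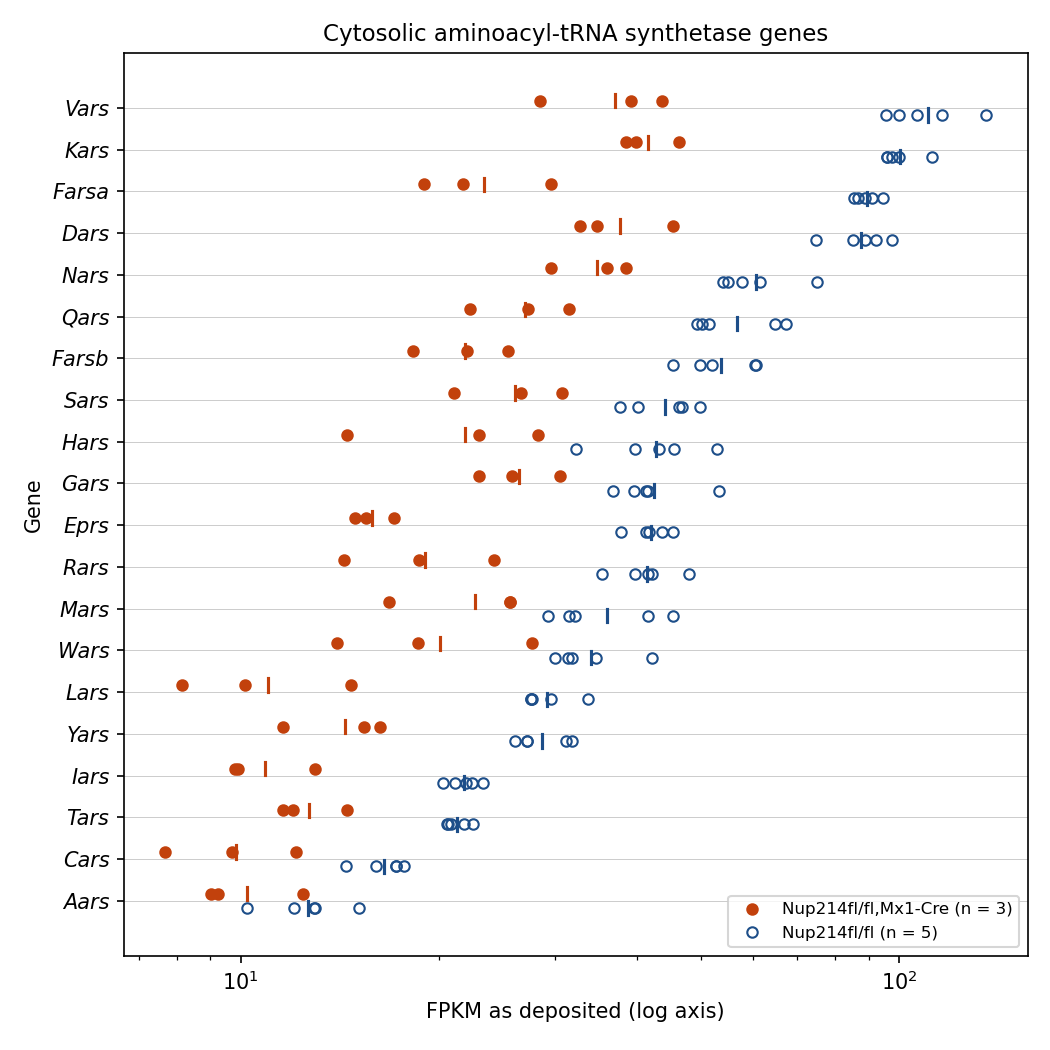
FPKM of the 20 cytosolic synthetase genes in each library as deposited, on a log axis; filled points are Nup214fl/fl,Mx1-Cre libraries (n = 3), open points Nup214fl/fl libraries (n = 5), and bars the group means. Knockout and control values overlap for Aars and are apart for the other 19 genes, with the knockout lower as deposited; after median-ratio rescaling Aars is higher in the knockout and 3 of the 19 are still called lower.

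The 8 genes of the multi-synthetase complex all fell as deposited, as 59.5% of all genes did, with a median fold change of -1.15. After median-ratio rescaling their median was -0.21, with 7 of 8 below 0 and 1 called lower, as 16.7% of all genes were. Eprs (ENSMUSG00000026615, chr1:185363044-185428360), which carries both the glutamyl and the prolyl activity in 1 protein, had 17.1, 14.9 and 15.5 FPKM in knockout libraries, against 41.8, 43.7, 37.9, 41.3 and 45.3 FPKM in control libraries. The knockout libraries were close to each other and all far below the controls. The log2 fold change of Eprs was -1.35 ± 0.12 (limma adjusted p = 1.8e-05), and it was -0.42 ± 0.13 after median-ratio rescaling (adjusted p = 0.027). The rescaled call of Eprs ended in 5 of the 8 fits that leave out a library, without control replicate 1, 2 or 5 or knockout replicate 2 or 3 (limma adjusted p = 0.0531 to 0.0674).

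Kars (ENSMUSG00000031948, chr8:111993443-112011323), the lysyl enzyme, had 46.3, 38.5 and 39.8 FPKM in knockout libraries, against 100.02, 97.5, 95.8, 112 and 95.8 FPKM in control libraries. The groups were apart as deposited, and the fold change of -1.25 ± 0.12 (limma adjusted p = 2.72e-05) became -0.30 ± 0.12 after median-ratio rescaling (adjusted p = 0.0876). Lars, the leucyl enzyme, which also senses leucine for mTORC1 signalling, averaged 11.003 ± 3.35 FPKM in knockout libraries and 29.2 ± 2.61 FPKM in control libraries (SD, n = 3 and 5), a fold change of -1.37. Dars (aspartyl) averaged 37.6 ± 6.82 FPKM in knockout libraries and 87.7 ± 8.59 FPKM in control libraries, a fold change of -1.21. Rars (arginyl) averaged 19.1 ± 4.97 FPKM in knockout libraries and 41.4 ± 4.55 FPKM in control libraries, a fold change of -1.10.

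Qars (glutaminyl) averaged 27.0 ± 4.64 FPKM in knockout libraries and 56.6 ± 8.70 FPKM in control libraries, with a fold change of -1.04. Iars (isoleucyl) averaged 10.9 ± 1.79 FPKM in knockout libraries and 21.9 ± 1.17 FPKM in control libraries, with a fold change of -0.95. Mars (methionyl) had the smallest change in the complex as deposited, though not after median-ratio rescaling, with 25.7, 16.8 and 25.7 FPKM in knockout libraries, against 45.3, 32.2, 31.5, 41.5 and 29.3 FPKM in control libraries. Its fold change was -0.65 ± 0.20 as deposited (limma adjusted p = 0.0156) and 0.29 after median-ratio rescaling (adjusted p = 0.299), and without knockout replicate 2 its adjusted p was 0.0628. Mars overlaps the stress gene Ddit3 on the opposite strand by 68 exonic bases, and since the strand setting of the counting is not given, reads there cannot be assigned. After median-ratio rescaling, the adjusted p of Dars, Iars, Lars, Qars and Rars were 0.192, 0.851, 0.0864, 0.674 and 0.49, with fold changes from -0.45 (Lars) to -0.04 (Iars).

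The fold changes of the 12 cytosolic enzymes outside the complex ran from -1.91 to -0.29 as deposited, against -1.37 to -0.65 within the complex. As deposited 11 of 12 fell, with a median fold change of -0.78, and after median-ratio rescaling the median was 0.16, with 2 called lower and 1 higher. Of all genes, 59.5% were called lower as deposited, and 16.7% lower and 19.0% higher after that rescaling. Farsa (ENSMUSG00000003808, chr8:84856989-84869257) encodes the catalytic alpha subunit of phenylalanyl-tRNA synthetase and had the largest fall of all 36 members. It had 19.0, 29.6 and 21.7 FPKM in knockout libraries, against 85.4, 86.7, 88.7, 94.6 and 91.1 FPKM in control libraries. The controls were tightly grouped, and the highest knockout value was far below the lowest control value. The fold change was -1.91 ± 0.15 (limma adjusted p = 1.05e-05), and it was -0.96 ± 0.14 after median-ratio rescaling (adjusted p = 0.000698), where it stayed called with any library left out.

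Farsb (ENSMUSG00000026245), the beta subunit that pairs with Farsa in the same enzyme, had 18.3, 25.4 and 22.0 FPKM in knockout libraries, against 49.9, 60.4, 45.4, 60.6 and 52.0 FPKM in control libraries. Its groups were also apart as deposited, with a fold change of -1.26 ± 0.15 (limma adjusted p = 9.13e-05), and -0.31 ± 0.15 after median-ratio rescaling (adjusted p = 0.128). The ratio of the subunits within a library needs no scaling between libraries. The Farsa to Farsb ratio of FPKM was 1.04, 1.16 and 0.986 in knockout libraries, against 1.71, 1.44, 1.95, 1.56 and 1.75 in control libraries. The subunit messages were near equal in every knockout library, and Farsa was the higher in every control library, with no overlap.

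Vars (ENSMUSG00000007029, chr17:35000987-35016322), the valyl enzyme, had the highest control mean of the class. It had 28.5, 39.1 and 43.6 FPKM in knockout libraries, against 136, 95.6, 106, 116 and 99.8 FPKM in control libraries. The groups were apart, with a fold change of -1.56 ± 0.17 as deposited (limma adjusted p = 5.17e-05) and -0.61 ± 0.17 after median-ratio rescaling (adjusted p = 0.02). The rescaled call ended without knockout replicate 1 (limma adjusted p = 0.0661).

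Aars (ENSMUSG00000031960, chr8:111033144-111057664), the alanyl enzyme, stood at the other end. It had 9.01, 12.5 and 9.24 FPKM in knockout libraries, against 12.04, 10.2, 12.9, 15.1 and 13.0 FPKM in control libraries. Knockout and control values overlapped as deposited, with a fold change of -0.29 ± 0.18 (limma adjusted p = 0.173). After median-ratio rescaling all knockout libraries (14.1, 18.8 and 13.8) were above all control libraries (9.72, 8.01, 9.93, 11.4 and 9.998), with a fold change of 0.61 ± 0.17 (limma adjusted p = 0.0193), while rescaling to the non-mitochondrial total gave 0.45 (adjusted p = 0.075). The rescaled call ended without control replicate 2 (limma adjusted p = 0.0512) and without knockout replicate 2 (adjusted p = 0.0505). Aars shares 1326 exonic bases on the same strand with Exosc6, an exosome subunit gene whose fold change was -1.12 as deposited.

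The other 8 free cytosolic genes were called lower as deposited and under none of the rescalings. Hars (histidyl) and Yars (tyrosyl) each had a fold change of -0.96, with -0.02 and -0.03 after median-ratio rescaling. Nars (asparaginyl), Wars (tryptophanyl), Sars (seryl), Cars (cysteinyl), Tars (threonyl) and Gars (glycyl) had fold changes from -0.79 (Nars) to -0.66 (Gars) as deposited and from 0.16 (Wars) to 0.28 (Gars) after median-ratio rescaling. Wars, which is strongly induced by interferon gamma in human cells, averaged 20.1 ± 6.95 FPKM in knockout libraries and 34.0 ± 4.84 FPKM in control libraries. Gars averaged 26.5 ± 3.84 FPKM in knockout libraries and 42.5 ± 6.36 FPKM in control libraries. Hars shares 195 exonic bases with its mitochondrial counterpart Hars2 on the opposite strand, so reads there cannot be assigned.

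**Figure D2:**
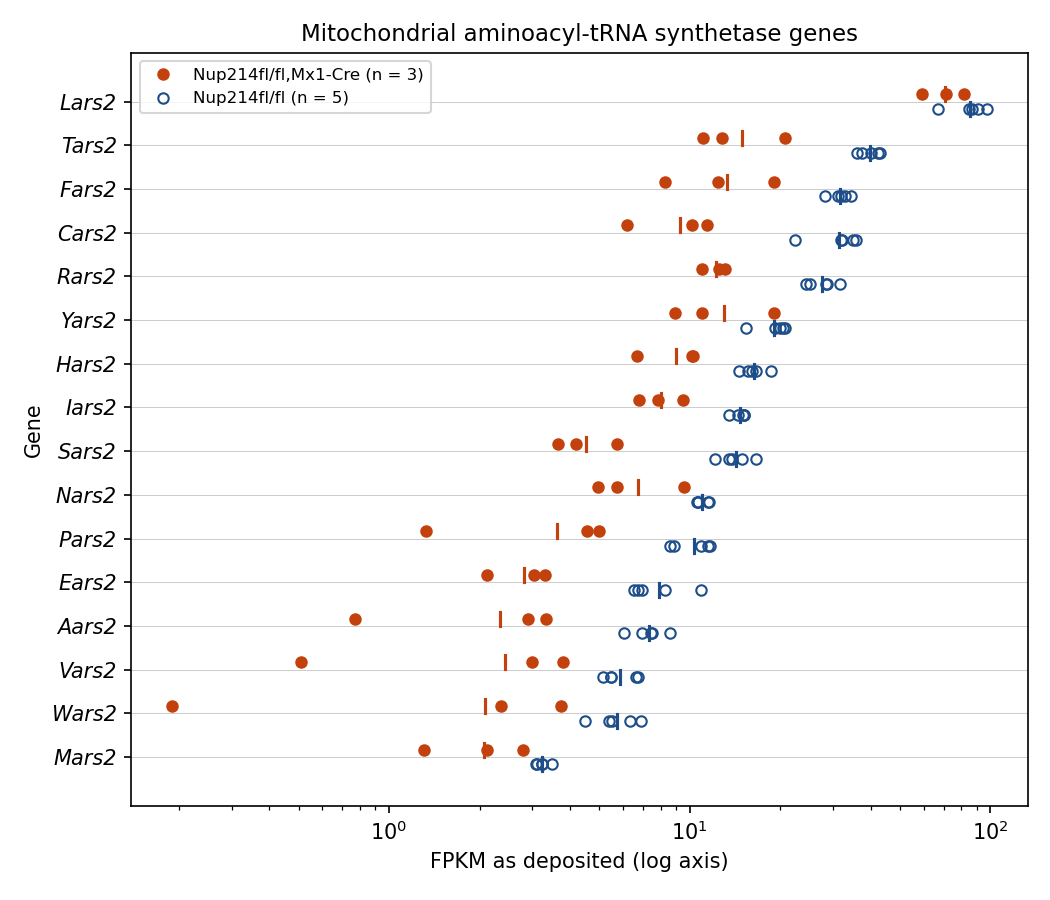
FPKM of the 16 mitochondrial synthetase genes in each library as deposited, on a log axis; filled points are Nup214fl/fl,Mx1-Cre libraries (n = 3), open points Nup214fl/fl libraries (n = 5), and bars the group means. Knockout and control values overlap for Lars2 and Yars2 and are apart for the other 14 genes with the knockout lower, and Wars2 and Vars2 have 1 knockout library far below the other 2.

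Among the mitochondrial enzymes, Sars2 (seryl; ENSMUSG00000070699, chr7:28741992-28753871) had the smallest p as deposited. It had 5.74, 4.19 and 3.64 FPKM in knockout libraries, against 13.9, 13.5, 14.9, 16.6 and 12.1 FPKM in control libraries. The groups were apart, with a fold change of -1.47 ± 0.18 as deposited (limma adjusted p = 8.87e-05) and -0.62 ± 0.19 after median-ratio rescaling (adjusted p = 0.0281). Rars2 (arginyl; ENSMUSG00000028292, chr4:34614957-34660167) had 11.02, 12.5 and 13.1 FPKM in knockout libraries, against 24.4, 28.7, 28.3, 25.1 and 31.7 FPKM in control libraries. Its knockout values were uniform and well below the controls, with a fold change of -1.11 ± 0.14 (limma adjusted p = 0.000107), and -0.19 after median-ratio rescaling (adjusted p = 0.303).

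Cars2 (cysteinyl; ENSMUSG00000056228, chr8:11513977-11550783), which also makes cysteine persulfides, had 11.4, 6.18 and 10.2 FPKM in knockout libraries, against 35.0, 31.9, 35.7, 22.5 and 32.2 FPKM in control libraries. The groups were apart, with a fold change of -1.68 ± 0.22 as deposited (limma adjusted p = 0.000122) and -0.77 ± 0.23 after median-ratio rescaling (adjusted p = 0.027). The rescaled calls of Cars2 and of Sars2 ended in 5 and in 6 of the 8 fits that leave out a library. Cars2 shares 422 exonic bases on the opposite strand with Naxd, which fell too (fold change -1.46).

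Lars2 (leucyl; ENSMUSG00000035202, chr9:123366927-123462666) had the highest FPKM of the mitochondrial synthetases in every library. It had 59.4, 81.7 and 71.2 FPKM in knockout libraries, against 97.3, 90.7, 84.9, 67.2 and 86.9 FPKM in control libraries. The groups overlapped as deposited, with a fold change of -0.27 ± 0.16 (limma adjusted p = 0.159). After median-ratio rescaling the knockout values (93.3, 123 and 106) were all above the control values (78.6, 71.0, 65.2, 50.7 and 67.0), and the fold change was 0.69 ± 0.16 (limma adjusted p = 0.00856). It was called higher under all 3 rescalings, as 14.9% of all genes were, and stayed called after median-ratio rescaling with any library left out. No member's transcripts, Lars2 included, aligned to a gene of the mitochondrial genome at an E-value of 1e-10 or below. Only annotated transcripts were compared, so introns and other genomic sequence were not checked, and reads shared with other sequences were not tested. Lars2 made up 34.8%, 47.9% and 37.5% of the summed mitochondrial synthetase FPKM in knockout libraries, against 28.1%, 27.2%, 24.8%, 22.2% and 26.0% in control libraries.

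Wars2, Vars2, Aars2 and Pars2 were very low in 1 knockout library. Wars2 (tryptophanyl) had 3.72, 0.190 and 2.36 FPKM in knockout libraries, against 5.52, 5.38, 6.90, 4.50 and 6.34 FPKM in control libraries. Vars2 (valyl) had 3.78, 0.510 and 2.99 FPKM in knockout libraries, against 5.46, 5.46, 6.74, 5.15 and 6.62 FPKM in control libraries. Knockout replicate 2, the library with the highest macrophage marker sum, was the lowest for both, as it was for Aars2 (0.770 FPKM) and Pars2 (1.33 FPKM). A level of 0.190 FPKM for Wars2 corresponds to about 19 fragments at the estimated depth of that library, if its longest annotated transcript (4410 bases) is assumed. A shorter transcript would give fewer. Without knockout replicate 2 the fold change of Wars2 was -0.75, against -1.33 with it. That of Vars2 was -0.65, against -1.16 with it, and both stayed called (limma adjusted p = 0.0156 and 0.0141). With all libraries, neither was called under any of the 3 rescalings, and after median-ratio rescaling the fold changes were -0.66 for Wars2 (limma adjusted p = 0.294) and -0.45 for Vars2 (0.41).

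Aars2 (alanyl), Tars2 (threonyl) and Pars2 (prolyl) each fell with a fold change between -1.41 and -1.40, Fars2 (phenylalanyl) with -1.27 and Ears2 (glutamyl) with -1.21, and none of these 5 was called after median-ratio rescaling, where their fold changes were -0.68 to -0.34. Iars2 (isoleucyl) and Hars2 (histidyl) fell with -0.81 and -0.80, and Nars2 (asparaginyl) with -0.68, as deposited, and had 0.08, 0.09 and 0.19 after median-ratio rescaling. Yars2 (tyrosyl) had 8.92, 10.9 and 19.0 FPKM in knockout libraries, against 15.4, 19.2, 20.4, 20.7 and 19.98 FPKM in control libraries. Its groups overlapped, and its call (fold change -0.59, limma adjusted p = 0.0397) ended without knockout replicate 1 (adjusted p = 0.158) or 2 (0.11) and without any of control replicates 2 to 5. Mars2 (methionyl) had 1.31, 2.12 and 2.78 FPKM in knockout libraries, against 3.23, 3.22, 3.08, 3.48 and 3.10 FPKM in control libraries. It was not called (fold change -0.49, limma adjusted p = 0.0594), although its groups did not overlap, and it was called without knockout replicate 3 (adjusted p = 0.0194). Iars2 shares 2034 exonic bases on the opposite strand with Rab3gap2, which fell by a like amount (fold change -0.96).

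**Figure D3:**
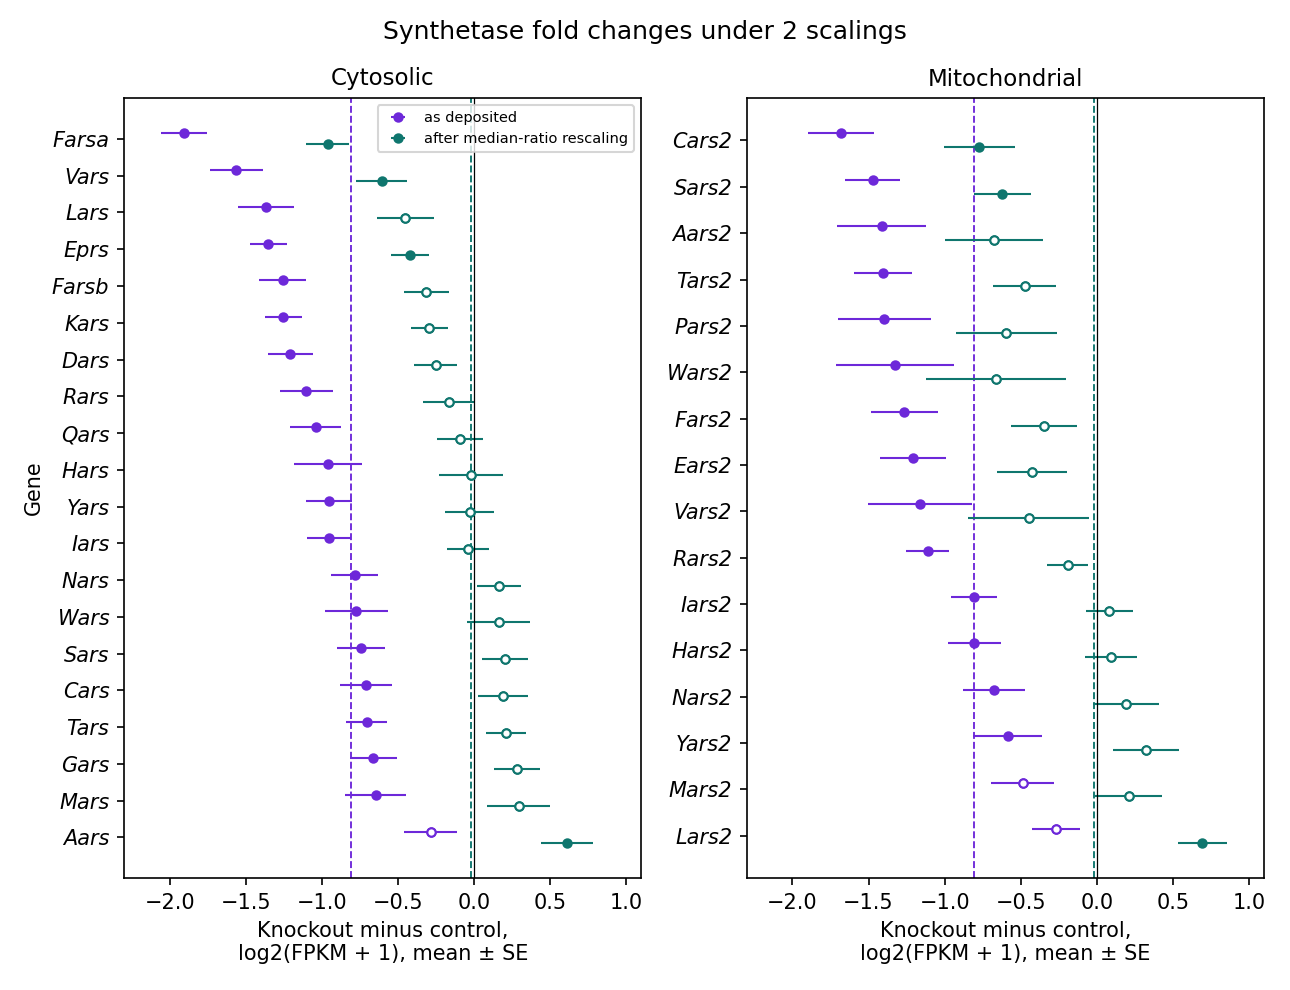
Fold change of each synthetase gene (knockout minus control, log2(FPKM + 1), mean ± SE), as deposited and after median-ratio rescaling, in the cytosolic and mitochondrial classes; filled markers have an adjusted p below 0.05, open markers do not, and dashed lines are the medians of all 15121 genes (-0.81 and -0.02). All 36 values are below 0 as deposited, and after rescaling they run from -0.96 (Farsa) to 0.69 (Lars2), with 22 below 0 and 14 above.

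Relative to the all-gene median of -0.81 as deposited, 7 of the 8 genes of the complex, 5 of the 12 free cytosolic genes and 11 of the 16 mitochondrial genes lay below it. After median-ratio rescaling the counts below that scaling's own median were again 7 of 8, 5 of 12 and 10 of 16. After quantile normalization they were 6, 3 and 10. The plot of fold changes orders both classes and shows that the span within a class was wider than the difference between the class medians.

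Ratios of the FPKM of a cytosolic gene to that of its mitochondrial counterpart within a library do not depend on a scaling factor between libraries. They are given as a description. Pairs were formed by symbol, from a cytosolic name and the same name with a final 2. Farsa and Farsb were therefore not set against Fars2, nor Eprs against Ears2 or Pars2. The ratio of Lars to Lars2 was 0.171, 0.180 and 0.115 in knockout libraries, against 0.284, 0.305, 0.349, 0.411 and 0.387 in control libraries. It was lower in every knockout library than in any control library. The ratio of Aars to Aars2 was 3.12, 16.2 and 2.77 in knockout libraries, against 1.98, 1.37, 1.86, 1.75 and 1.75 in control libraries, and the highest value came from knockout replicate 2, where Aars2 was very low. That of Cars to Cars2 was 0.850, 1.24 and 1.19 in knockout libraries, against 0.413, 0.502, 0.483, 0.789 and 0.535 in control libraries. That of Sars to Sars2 was 4.65, 5.03 and 8.44 in knockout libraries, against 2.72, 2.97, 3.13, 2.99 and 3.83 in control libraries. In these 3 pairs the cytosolic message was relatively higher in every knockout library, the opposite of the leucyl pair. In the other pairs formed by symbol the groups overlapped. How often ratios of other gene pairs keep these groups apart was not computed, for these pairs or for Farsa to Farsb. Among single genes after median-ratio rescaling, 17.1% were apart with the knockout lower and 19.7% with it higher.

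**Figure D4:**
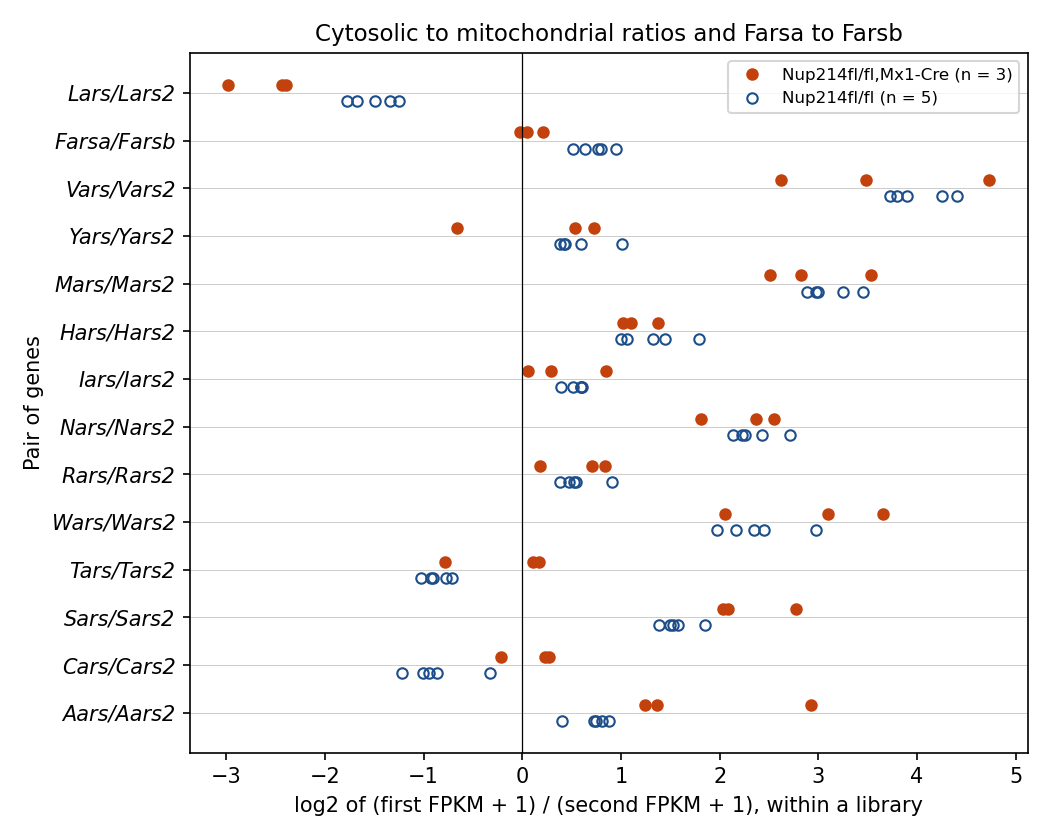
Log2 ratio of each cytosolic to its mitochondrial synthetase gene, and of Farsa to Farsb, within each library, with 1 added to each FPKM as deposited, which draws the ratios of low genes towards 0; filled points are Nup214fl/fl,Mx1-Cre libraries (n = 3) and open points Nup214fl/fl libraries (n = 5). The groups are apart for Lars/Lars2 and Farsa/Farsb (knockout lower) and for Aars/Aars2, Cars/Cars2 and Sars/Sars2 (knockout higher), and overlap for the other pairs.

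As sums, the cytosolic to mitochondrial ratio was 2.47, 2.65 and 2.42 in knockout libraries, against 2.72, 2.80, 2.73, 3.58 and 2.88 in control libraries. Without Lars2 it was 3.79, 5.10 and 3.87 in knockout libraries, against 3.78, 3.85, 3.64, 4.61 and 3.89 in control libraries. The groups were apart with Lars2 and overlapped without it. Within the cytosolic sum, Farsa took 4.49%, 6.53% and 4.74% in knockout libraries, against 9.07%, 9.27%, 9.48%, 8.71% and 9.48% in control libraries. Vars also took a lower share in every knockout library, while Aars, Gars and Tars took a higher share in every knockout library than in any control library. Aars, at 2.13%, 2.75% and 2.01% in knockout libraries and 1.28%, 1.09%, 1.38%, 1.39% and 1.35% in control libraries, remained a minor message. Within the mitochondrial sum the shares of Cars2, Ears2 and Sars2 were lower and that of Lars2 higher without overlap. Shares of this kind were not computed for other genes, so these separations have no background beside them.

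Genes that work with the synthetases were given in 6 lists of 57 genes, of which 54 were tested. As deposited 43 fell and none rose, where 59.5% of all genes were called lower and 8.91% higher. After median-ratio rescaling 9 were called lower and 9 higher, close to the shares of all genes (16.7% lower and 19.0% higher). All 3 scaffold genes of the multi-synthetase complex fell. Aimp2 had 18.8, 10.6 and 8.78 FPKM in knockout libraries, against 49.7, 47.3, 46.8, 53.5 and 36.4 FPKM in control libraries, and its fold change was -1.86 ± 0.23 as deposited (limma adjusted p = 8.84e-05) and -0.93 ± 0.24 after median-ratio rescaling (adjusted p = 0.0139). Aimp1 had 18.4, 33.7 and 17.6 FPKM in knockout libraries, against 50.5, 59.1, 56.4, 65.0 and 57.8 FPKM in control libraries (fold change -1.34). Eef1e1, also called AIMP3, had 8.42, 12.5 and 13.7 FPKM in knockout libraries, against 30.4, 39.9, 30.1, 24.6 and 37.2 FPKM in control libraries (fold change -1.42). For all 3 the groups were apart, as they were with lower knockout values for 54.5% of all genes. Aimp2 was the scaffold gene called lower under all 4 scalings, as 16.6% of all genes were.

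The 6 genes that proofread charged transfer RNAs or make selenocysteinyl-tRNA all fell as deposited, and 4 of them were called lower under all 4 scalings. Of all genes, 59.5% were called lower as deposited and 16.6% under all 4 scalings. Prorsd1, which resembles a bacterial editing domain that clears mischarged prolyl-tRNA, had 7.54, 5.14 and 13.1 FPKM in knockout libraries, against 32.1, 43.1, 41.9, 36.6 and 41.0 FPKM in control libraries. Dtd1, a deacylase that removes D-amino acids from transfer RNA, had 11.8, 6.21 and 12.8 FPKM in knockout libraries, against 46.4, 48.3, 49.9, 46.4 and 40.5 FPKM in control libraries. Both were apart between the groups, with fold changes of -2.14 ± 0.24 and -2.12 ± 0.21 as deposited (limma adjusted p = 5.88e-05 and 2.68e-05) and -1.23 and -1.21 after median-ratio rescaling (adjusted p = 0.0037 and 0.00207). Aarsd1, an alanyl-tRNA editing protein, had 7.74, 15.9 and 12.8 FPKM in knockout libraries, against 35.1, 40.8, 37.8, 48.4 and 33.1 FPKM in control libraries (fold change -1.65, and -0.73 after rescaling). Pstk, the kinase of the selenocysteine route, had 13.1, 15.01 and 11.3 FPKM in knockout libraries, against 31.7, 40.9, 38.5, 35.0 and 30.8 FPKM in control libraries (-1.36, and -0.44 after rescaling). The groups were apart for both. Dtd2, a related deacylase, averaged 6.34 ± 2.02 FPKM in knockout libraries and 14.3 ± 0.635 FPKM in control libraries (fold change -1.09, and -0.22 after rescaling), and Sepsecs, the last enzyme of the selenocysteine route, averaged 3.03 ± 0.626 FPKM in knockout libraries and 5.30 ± 0.503 FPKM in control libraries (-0.65, and 0.12 after rescaling).

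The 4 genes of mitochondrial transfer RNA charging outside the synthetases fell as deposited, as 59.5% of all genes did, and were not called after median-ratio rescaling. Gatb, Gatc and Qrsl1, the subunits of the amidotransferase that makes glutaminyl-tRNA in mitochondria, had fold changes of -1.16, -1.18 and -0.75 as deposited and -0.30, -0.27 and 0.11 after rescaling. Mtfmt, which formylates the initiator methionyl-tRNA, had -1.03 and -0.16. Their means were 5.09 ± 0.830, 10.5 ± 2.80, 5.64 ± 1.60 and 6.52 ± 1.41 FPKM in knockout libraries, in the order Gatb, Gatc, Qrsl1, Mtfmt, and 12.6 ± 2.22, 24.5 ± 2.06, 10.002 ± 1.60 and 14.3 ± 1.73 FPKM in control libraries.

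Of 20 genes of transfer RNA processing and export, 19 were tested (Rpp25 was too low) and 17 fell as deposited, where 59.5% of all genes were called lower. After median-ratio rescaling 3 were called lower, near the 16.7% of all genes. Rtcb, the ligase that joins transfer RNA exons after splicing, had 33.2, 31.0 and 40.6 FPKM in knockout libraries, against 119.9, 108, 115, 134 and 113 FPKM in control libraries. The groups were far apart, with a fold change of -1.73 ± 0.14 (limma adjusted p = 1.02e-05) and -0.78 ± 0.13 after rescaling (adjusted p = 0.00126). Rpp30, a subunit of RNase P, which trims the 5′ end of transfer RNA precursors, had 6.86, 8.70 and 11.04 FPKM in knockout libraries, against 21.3, 26.9, 26.2, 32.7 and 26.9 FPKM in control libraries (fold change -1.504, and -0.60 after rescaling, limma adjusted p = 0.0227). Tsen34, a subunit of the splicing endonuclease, had 29.0, 30.1 and 24.3 FPKM in knockout libraries, against 62.3, 55.8, 62.2, 67.8 and 50.7 FPKM in control libraries (fold change -1.08, and -0.13 after rescaling, limma adjusted p = 0.509). The third gene called after rescaling was Rpp38, another RNase P subunit (fold change -1.81, and -0.997 after rescaling), named after its values were seen.

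The amino acid response, in which ATF4 raises several synthetase genes, had 12 listed genes, of which 10 were tested (Chac1 and Slc7a11 were too low). As deposited 8 fell and none rose, where 59.5% of all genes were called lower and 8.91% higher. After median-ratio rescaling 1 was called lower and 2 higher, where 16.7% and 19.0% of all genes were. Phgdh, the first enzyme of serine synthesis, had 58.2, 23.2 and 35.6 FPKM in knockout libraries, against 259, 255, 267, 290.2 and 216 FPKM in control libraries. Its groups were far apart, with a fold change of -2.78 ± 0.25 (limma adjusted p = 1.68e-05) and -1.82 ± 0.26 after rescaling (adjusted p = 0.000537). Atf4 itself had 35.0, 30.7 and 42.9 FPKM in knockout libraries, against 63.1, 66.9, 66.1, 65.2 and 65.8 FPKM in control libraries (fold change -0.85 ± 0.13, limma adjusted p = 0.000343, and 0.10 after rescaling, adjusted p = 0.56). Psat1, the next enzyme of serine synthesis, had 14.9, 13.0 and 10.3 FPKM in knockout libraries, against 27.7, 35.8, 32.6, 52.3 and 28.7 FPKM in control libraries (fold change -1.38, and -0.46 after rescaling). Sesn2 and Slc3a2, named after their values were seen, had fold changes of 0.02 and -0.02 as deposited, not called, and 0.86 and 0.94 after rescaling, both called higher. After median-ratio rescaling 6 of the 10 fold changes were below 0 and 4 above, with calls near the shares of all genes.

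Of 12 interferon gamma response genes, a programme that includes Wars in human cells, 5 fell as deposited and none rose, and after median-ratio rescaling none was called lower and 7 were called higher. The shares of all genes were 59.5% lower as deposited, and 16.7% lower and 19.0% higher after that rescaling. Tap1, a peptide transporter, had 67.0, 59.0 and 55.9 FPKM in knockout libraries, against 129, 106, 132, 151 and 124 FPKM in control libraries (fold change -1.07, and -0.11 after rescaling). Psmb9, an immunoproteasome subunit, had 107, 104 and 93.4 FPKM in knockout libraries, against 172, 224, 219, 187 and 219.6 FPKM in control libraries (fold change -0.998, and -0.03 after rescaling). Irf8, a myeloid and interferon-responsive transcription factor, had 76.3, 120.4 and 81.0 FPKM in knockout libraries, against 154, 212, 370.3, 430.0 and 271 FPKM in control libraries (fold change -1.56, and -0.59 after rescaling, limma adjusted p = 0.16). All 3, taken by smallest p as deposited, were lower without overlap as deposited, and none was called after rescaling. Of the 12 genes, 4 had that order as deposited, where 54.5% of all genes did. Among the genes called higher after rescaling, named after their values were seen, were Irf1, Gbp2, Gbp7, Ifi47, Igtp and Irgm1, with rescaled fold changes from 0.57 (Irf1) to 1.18 (Igtp), against 0.16 for Wars.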

How the data were processed

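Bulk RNA-seq of sorted bone marrow cells (3 knockout and 5 control libraries) was analysed from a table of FPKM that the authors deposited, 52097 genes by Ensembl identifier. Per the labels' protocols, cDNA was made from messenger RNA and amplified by the Geo-seq method, and a Vazyme TruePrep kit made the libraries. Per the submitters' processing notes the genome was mm10 and the tools were Bowtie 0.12.9, Cufflinks 2.1.1, HTSeq and DESeq2, with no roles. The annotation, filters and strand setting are not given in the sources used here.

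Symbols, coordinates and exon overlaps were taken from GENCODE vM21 (GRCm38), and all 52097 identifiers matched. Genes with at least 1 FPKM in at least 3 libraries (15121) were tested on log2(FPKM + 1) by limma 3.58.1 (trend, robust) in R 4.3.3. P-values were adjusted by Benjamini-Hochberg over all genes tested, at a threshold of 0.05, and an adjusted p without a tool's name is from this fit. The script was tested on simulated data. Alternatives were 3 rescalings, a pseudocount of 0.1, 2 other filters, a replicate block and each library left out. Median-ratio factors came from the 10194 genes with at least 1 FPKM in every library.

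No counts are in the table, so depth was estimated from the steps between low FPKM values. At the best depth, 65.0% to 86.7% of low values were within 0.15 of a whole fragment, against 30% by chance, too few to recover counts. At these depths 1 fragment per kilobase is worth 0.0225 to 0.0617 FPKM. Transcripts were aligned with BLAST+ 2.17.0 to look for copies. For 3 members, pseudogene copies with at least 90% identity were found, which could share reads.

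Members, related lists, markers and motifs were chosen with earlier results of these data known. Values of every library are given for the 3 members with the smallest p and the 1 with the largest in each class, for members called under all 4 scalings, and in related lists of up to 6 genes for all members or else for the 3 with the smallest p. Other genes were named in view of their values. Members of short lists beyond the first are given by mean and SD where they were not called after rescaling. Some genes of the related lists and markers are counted and not reported by name here.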

Additional observations from a re-analysis of the deposited data

Results flagged for a closer look

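In 4 of the 37 genes checked (the members and Nup214), 1 of the 5 control libraries lay apart from the other 4. Chance alone puts about 1 in 20 groups in this position. Kars had 112.15 FPKM in control replicate 4, above the other controls (95.8 to 100.02 FPKM), and Gars had 53.35 FPKM in the same library, above the others (36.8 to 41.5 FPKM). Cars2 had 22.47 FPKM in control replicate 4, below the other controls (31.9 to 35.7 FPKM), and still above all knockout libraries. Yars2 had 15.37 FPKM in control replicate 1, below the other controls (19.2 to 20.7 FPKM) and within the range of the knockout libraries. Control replicate 4 also had the highest cytosolic sum (1086 FPKM) and the lowest mitochondrial sum (303 FPKM) of the controls. Knockout groups of 3 libraries were not checked in this way.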

How the results depend on the processing

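The scaling between libraries changed the member calls most among the alternatives run. Calls over all genes as deposited (1348 higher, 8997 lower) became 2876 higher and 2520 lower after median-ratio rescaling, 2338 and 3411 with the non-mitochondrial total, and 2530 and 3079 after quantile normalization, which puts the higher share of calls at 13.0% as deposited and at 53.3%, 40.7% and 45.1% after the rescalings in that order. Cytosolic synthetases called lower numbered 19 as deposited and 3, 7 and 3 in that order of rescalings, and those called higher 0 as deposited, 1 after median-ratio rescaling and 1 after quantile normalization. Mitochondrial synthetases called lower numbered 14 as deposited and 2, 3 and 2, and those called higher 0 as deposited and 1, 1 and 1. Related genes called lower numbered 43 as deposited and 9, 13 and 9, and those called higher 0 as deposited and 9, 8 and 9. Nup214 was no longer called after median-ratio rescaling (-0.72) and stayed called with the non-mitochondrial total (-0.89) and after quantile normalization (-0.76). Fold changes of 14 members turned positive after median-ratio rescaling (Mars 0.29, Aars 0.61, Cars 0.19, Gars 0.28, Nars 0.17, Sars 0.20, Tars 0.21, Wars 0.16, Hars2 0.093, Iars2 0.083, Lars2 0.69, Mars2 0.21, Nars2 0.19, Yars2 0.33), of 10 with the non-mitochondrial total (Mars 0.12, Aars 0.45, Cars 0.028, Gars 0.11, Sars 0.032, Tars 0.045, Lars2 0.52, Mars2 0.080, Nars2 0.036, Yars2 0.16) and of 13 after quantile normalization (Mars 0.26, Aars 0.55, Cars 0.14, Gars 0.25, Nars 0.13, Sars 0.16, Tars 0.16, Wars 0.13, Hars2 0.033, Iars2 0.022, Lars2 0.64, Nars2 0.12, Yars2 0.28). Which scaling is nearer the amount of RNA per cell was not tested.

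Without a filter 3561 genes were called higher, and with at least 1 FPKM in 6 libraries 719, since the filters test different genes. The member calls kept their side of the threshold with a pseudocount of 0.1 (36 of 36) and with the stricter filter (36 of 36), and without a filter in 35 of 36, the exception being Yars2. With 1 library left out at a time, 280 of 288 member calls stayed, 7 ended and 1 was gained. Calls over all genes then ran from 847 to 1351 higher, with 847 without knockout replicate 2 and 860 without knockout replicate 3, and related genes called higher from 0 to 1. After median-ratio rescaling, leaving out a library gave 0 to 3 mitochondrial genes lower, 2 to 3 cytosolic genes lower and 0 to 1 cytosolic gene higher. Mitochondrial genes called lower after rescaling were 2 with all libraries, 0 without control replicate 1, 2 or 3 or knockout replicate 2, and 1 without control replicate 4 or 5. Cytosolic genes called higher were 0 without control replicate 2 or knockout replicate 2.

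The labels do not say whether replicate numbers pair the libraries. The correlations of same-numbered libraries' deviations were -0.0352, 0.0276 and -0.0434, and those of differently numbered libraries ran from -0.108 to 0.115. This gave no sign of pairing, but so few libraries cannot settle it. With a replicate block over the 6 libraries numbered 1 to 3, 1241 genes were called higher and 7641 lower, with 19 cytosolic and 12 mitochondrial synthetases lower, and 37 related genes lower, against 1250 and 7919, 19, 13 and 38 in the same libraries without the block. Nars2 was called without the block (adjusted p = 0.0447) and not with it (0.0595), and Yars2 was called in neither of these fits. Depth limits the low mitochondrial genes most, where about 19 fragments stand behind the lowest value if the longest transcript is assumed. The counting error of members cannot be given without counts.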
